A study of Rattus norvegicus with 6 samples.

Results

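The mRNAs of 10 genes of bile acid synthesis and export were followed through total RNA and polysome fractions of rat liver. They are 10 of the 33022 loci in the deposited table, namely Cyp7a1, Cyp8b1, Cyp27a1, Cyp7b1, Hsd3b7, Akr1d1, Baat, Slc27a5, Abcb11 and Nr0b2. They were picked for their role in the pathway and matched by gene symbol, and each symbol was found on 1 locus that overlapped no other locus. All 10 were among the 10201 loci compared, that is, loci with a symbol whose estimate succeeded and whose mean over the libraries reached 1 FPKM, the authors' unit of fragments scaled to transcript length and library size.

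Livers came from male obesity-prone Sprague Dawley rats that ate either a control diet (CD) or a Western diet (WD), rich in milk fat and sucrose with added cholesterol, for 2 weeks. All rats were fasted overnight and briefly refed before the liver was taken. For each diet, RNA of 3 rats was pooled into 1 library of total RNA, 1 of the light sucrose gradient fraction (up to 3 ribosomes per mRNA) and 1 of the heavy fraction (at least 4). With 1 library per diet and kind of RNA there are no replicates, so no difference between diets could be tested and no rat-to-rat spread is known.

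Hepatocytes turn cholesterol into bile acids, which is the main route by which cholesterol leaves the body. In the classic pathway Cyp7a1 takes the rate-limiting step and Cyp8b1 sets the share of cholic acid, while Cyp27a1 and Cyp7b1 open an alternative pathway that starts at the side chain. Hsd3b7 and Akr1d1 reshape the sterol rings, Slc27a5 and Baat join the acid to taurine or glycine, and Abcb11, the bile salt export pump, moves the product into the canaliculus. Nr0b2 (small heterodimer partner, SHP) is a nuclear receptor without a DNA-binding domain that is known to repress Cyp7a1 and Cyp8b1 when the bile acid receptor FXR is active, in part by acting on LRH-1. In rat liver, Cyp7a1 is also known to be induced by dietary cholesterol through the oxysterol receptor LXR.

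Because SHP acts through LRH-1, the short motif CAAGGNCA, to which LRH-1 can bind as a monomer, was searched on both strands in promoter windows from RefSeq (assembly GRCr8). The windows run from 250 bases before to 50 bases after the annotated start. Of the 10 genes, 6 had an entry, and the motif was present in 3 of the 6, as in 6.55% of all 33469 promoters in the table. The matches are shown with 9 bases on either side, read 5′ to 3′ along the gene, with the motif in capitals. In Nr0b2 the motif lay 199 to 192 bases before the start (chr5:151062952-151062977, plus strand). In Cyp8b1 it lay 82 to 75 bases before it (chr8:130457658-130457683, minus strand). In Cyp27a1 it was on the opposite strand, 236 to 229 bases before the start (chr9:83713287-83713312, plus strand), so the capitals show its reverse complement.
Nr0b2: aagcgatagCAAGGCCAcgtggagct
Cyp8b1: agcaaggtcCAAGGGCAtgggcgttt
Cyp27a1: ggcctcacaTGACCTTGgctgcttga
The longer FXR motif (an inverted repeat with a spacer of 1 base), HNF4A motif (a direct repeat with a spacer of 1) and LXR motif (a direct repeat with a spacer of 4) were found, as exact matches to the consensus, in 0 of the 6, and in 0.0269%, 0.0538% and 0.00598% of all promoters. These matches describe letters in a window and say nothing of binding. Cyp7a1, Cyp7b1, Akr1d1 and Abcb11 had no entry.

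Fragment numbers are not in the table but could be inferred from FPKM values, which for many loci are whole numbers of fragments times 1 step per gene and 1 factor per library. Such numbers were available for 8 of the 10 genes and for 6901 of the loci compared (67.7%). Over the loci compared, the median lay between 9 fragments per locus in either heavy library and 23 in the WD light library, which was the deepest. One fragment in the WD light library was worth 0.673 times the FPKM of a fragment in CD total RNA, against 1.57 times in the CD heavy library. Where fragment numbers are given below, the 95% interval of a ratio is the exact Clopper-Pearson interval (for ribosome density, that of the conditional odds ratio). These intervals compare libraries, not diets, and cover counting error only, since reads amplified by PCR without molecular identifiers are not independent molecules. All 7 hepatocyte markers were above 0 in every library, with a summed level of 43894 to 135698 FPKM. Of 6 cholangiocyte markers 5 were found, of which Krt7, Cftr and Spp1 were listed at 0 in all 6 libraries, and their summed level reached at most 4.35 FPKM. The summed level of 6 Kupffer cell and macrophage markers was higher in WD than in CD in total RNA (45.0 and 64.5 FPKM), in the light fraction (41.1 and 54.0 FPKM) and in the heavy fraction (71.4 and 100 FPKM). Blood cell markers reached 250 FPKM in the WD light library and 8.23 to 33.7 FPKM in the others. Markers of sinusoidal endothelium, given as CD and WD, summed to 53.4 and 70.9 FPKM in total RNA and 48.7 and 56.2 FPKM in the light fraction. In the heavy fraction they summed to 64.6 and 62.9 FPKM. Stellate cell markers summed to 29.7 and 39.1 FPKM in total RNA, 35.3 and 27.0 FPKM in the light and 34.6 and 56.6 FPKM in the heavy fraction. In total RNA a higher sum in WD was thus not particular to macrophage markers. The part of these in the results below was not tested. In such bulk RNA, fewer cells of a type and less RNA per cell cannot be told apart.

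Levels in total RNA spanned 145-fold between the highest and the lowest of the 10 genes. By the mean of the CD and WD libraries, the reductase Akr1d1 came first at 283 FPKM, followed by Cyp8b1 at 247 FPKM, Baat at 200 FPKM and Abcb11 at 149 FPKM. Slc27a5 (108 FPKM) and Cyp27a1 (99.2 FPKM) came next, then Hsd3b7 (41.5 FPKM) and the rate-limiting Cyp7a1 (36.4 FPKM). Nr0b2 had 7.36 FPKM, and Cyp7b1, of the alternative pathway, was lowest at 1.96 FPKM. The ranges over the total RNA libraries of CD and WD overlapped for 3 of the 9 pairs of neighbours in this order, namely Akr1d1 with Cyp8b1, Slc27a5 with Cyp27a1, and Hsd3b7 with Cyp7a1. Over all 6 libraries the ranges of 8 of the 9 pairs overlapped, and only Cyp7a1 and Nr0b2 stayed apart. FPKM is a level per transcript length, so these levels can be set beside each other.

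**Figure D1:**
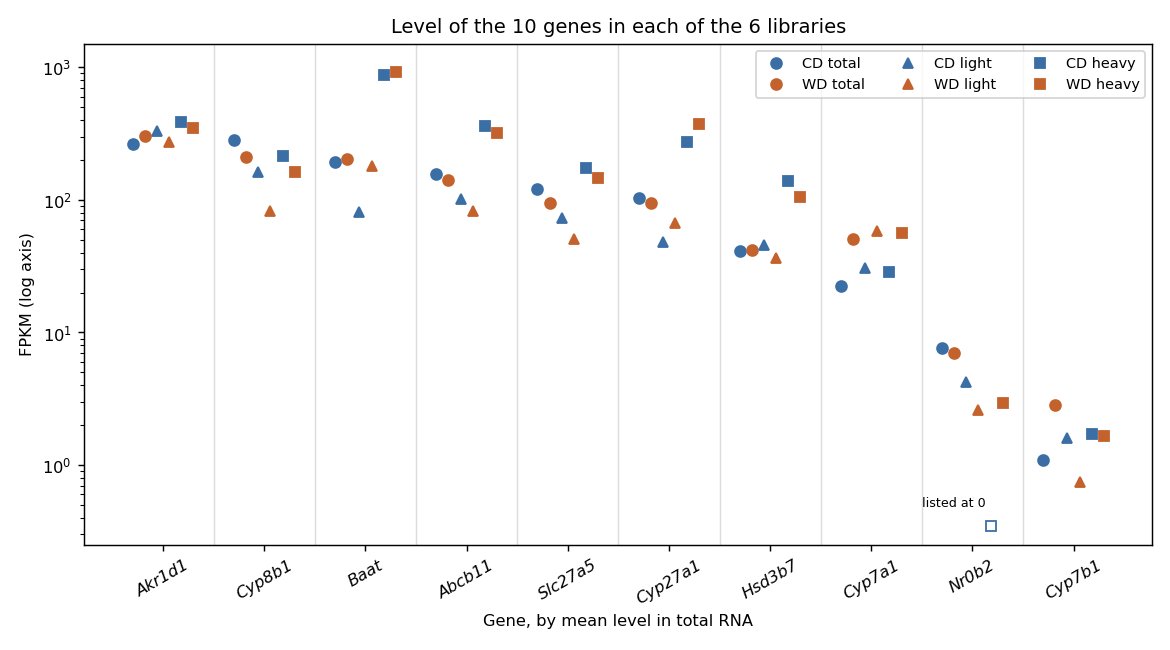
FPKM (log axis) of the 10 genes in the 6 libraries, ordered by mean level in total RNA. Circles are total RNA, triangles the light and squares the heavy fraction, with CD in blue and WD in orange, and the open square marks Nr0b2 listed at 0 in the CD heavy library. Cyp7a1 is the gene whose 3 WD points all lie above its 3 CD points, whereas Baat and Cyp27a1 are spread mainly between the light and the heavy fraction.

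Cyp7a1, cholesterol 7-alpha-hydroxylase, was higher in WD in all 3 kinds of RNA. Its locus (XLOC_023812; Rnor_6.0, chromosome 5, 19358733 to 19368431) had 22.2 FPKM in CD and 50.6 FPKM in WD total RNA, from 85 and 185 fragments. In the light fraction it had 30.6 FPKM (80 fragments) in CD and 58.8 FPKM (334 fragments) in WD. In the heavy fraction it had 28.4 FPKM (69 fragments) and 56.6 FPKM (141 fragments). The lowest WD value thus lay above the highest CD value. By their titles, the 3 libraries of a diet came from the same 3 rats, so the 3 kinds of RNA are not separate support. The WD to CD ratio was 2.27 in total RNA (95% interval 1.75 to 2.98), 1.92 in the light fraction (1.5 to 2.48) and 1.99 in the heavy fraction (1.49 to 2.70). The bounds that the authors deposited with each value overlapped between diets in all 3 kinds of RNA. In total RNA they ran from 4.92 to 39.5 FPKM in CD and from 9.62 to 91.6 FPKM in WD. Ratios here and below were formed after 0.1 FPKM was added to each value. A WD to CD ratio of at least 1.5 was called higher and one of at most 0.75 lower. The study's methods use the numbers 1.5 and 0.75 for ribosome density with the ratio the other way round, CD over WD, which on the WD to CD scale puts the limits at 1.33 and 0.667, and calls by those limits are given further on. By the limits of 1.5 and 0.75 Cyp7a1 was the only gene of the 10 that was higher in all 3 kinds of RNA, as were 2.23% of the loci compared. Its counting interval lay above 1 in all 3, which held for 0.188% of the loci with fragment numbers. That share depends on depth, since those loci had a median of only 9 to 23 fragments per library and thus wider intervals. Among the 444 loci with at least as many total RNA fragments as Cyp7a1, 2 (0.450%) were at least 1.5-fold higher in all 3 kinds of RNA, Cyp7a1 and Ubxn6. That cut was set by Cyp7a1 itself, which has more fragments in WD, so shares and ranks within this set are descriptive and test nothing. Of these 444 loci, 13 (2.93%) were at least 1.5-fold higher in total RNA, and Cyp7a1 ranked second.

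Cyp8b1, the sterol 12-alpha-hydroxylase of the classic pathway (XLOC_029927; chromosome 8, 130548417 to 130550388), was lower in WD in all 3 kinds of RNA. In total RNA it had 282 FPKM (570 fragments) in CD and 212 FPKM (411 fragments) in WD, a ratio of 0.754 (0.662 to 0.857). The light fraction held 163 FPKM (225 fragments) in CD and 82.8 FPKM (249 fragments) in WD, a ratio of 0.509 (0.423 to 0.612). The heavy fraction held 216 FPKM (278 fragments) and 162 FPKM (214 fragments), a ratio of 0.752 (0.626 to 0.901). Only the light fraction passed the threshold of 0.75, with the other ratios just above it, and all 3 counting intervals lay below 1.

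Since both enzymes belong to the classic pathway, the level of Cyp7a1 was set against that of Cyp8b1 within each library, where library scaling cancels. This comparison was chosen after the data were seen. In total RNA, Cyp7a1 stood at 0.0789 times the level of Cyp8b1 in CD and at 0.238 times in WD, a 3.02-fold difference (2.25 to 4.07). In the light fraction the ratio was 0.188 in CD and 0.710 in WD, a 3.77-fold difference (2.76 to 5.18), and in the heavy fraction it was 0.131 and 0.349, a 2.65-fold difference (1.87 to 3.79). Set against each of the other genes with fragment numbers, Cyp7a1 gained in WD with an interval above 1 in 16 of 20 such comparisons. The exceptions were Cyp27a1 and Baat in the light fraction and Nr0b2 in total RNA and in the light fraction. All 20 comparisons reuse the same Cyp7a1 values, so they restate its difference and are not separate support. No such count was formed for other loci.

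The alternative pathway enzymes behaved differently from Cyp7a1. Cyp27a1, the mitochondrial sterol 27-hydroxylase (XLOC_030442; chromosome 9, 81968331 to 81998169), had 103 FPKM (245 fragments) in CD and 95.2 FPKM (216 fragments) in WD total RNA, a ratio of 0.922 (0.764 to 1.11). It was higher in WD in the light fraction, with 48.1 FPKM (78 fragments) and 67.2 FPKM (237 fragments), a ratio of 1.40 (1.08 to 1.83). The heavy fraction had 275 FPKM (415 fragments) in CD and 376 FPKM (582 fragments) in WD, a ratio of 1.37 (1.20 to 1.56). Cyp27a1 was therefore higher in both fractions but not in total RNA, and none of its ratios reached 1.5 or 0.75. Both fraction ratios passed the limit of 1.33 that follows from CD over WD. With libraries rescaled to an equal sum over all loci, the log2 ratios were 1.17 (light) and 0.83 (heavy), in place of 0.48 and 0.45. The medians over all loci were then 0.69 and 0.34. Rescaled over loci with a symbol, the log2 ratios of Cyp27a1 were only 0.13 (light) and 0.43 (heavy), beside medians of -0.29 and -0.04. Cyp7b1, the oxysterol 7-alpha-hydroxylase (XLOC_016573; chromosome 2, 102701902 to 102871257), was near the limit of detection. It had 1.08 FPKM in CD and 2.84 FPKM in WD total RNA, 1.59 and 0.739 FPKM in the light fraction, and 1.70 and 1.66 FPKM in the heavy fraction. Its fragment numbers could not be inferred, but the bounds deposited with its values were nearest to those of 5 fragments in WD total RNA and of 2 in each of the other libraries. Its WD to CD ratios of 2.48 in total RNA and 0.497 in the light fraction rest on that depth.

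The ring-modifying enzymes showed small differences. Hsd3b7, the 3-beta-hydroxysteroid dehydrogenase of the pathway (XLOC_001315; chromosome 1, 199248469 to 199251740), had 41.1 FPKM (75 fragments) in CD and 41.9 FPKM (73 fragments) in WD total RNA, a ratio of 1.02 (0.727 to 1.42). Its light fraction values were 45.7 FPKM (57 fragments) and 36.5 FPKM (99 fragments), a ratio of 0.799 (0.571 to 1.13). In the heavy fraction it had 139 FPKM (161 fragments) in CD and 106 FPKM (126 fragments) in WD, a ratio of 0.764 (0.600 to 0.971). Akr1d1, the delta-4-3-ketosteroid 5-beta-reductase (XLOC_021060; chromosome 4, 65110735 to 65143941), varied least of the 10 genes, by 1.47-fold between its lowest and highest library. It had 263 and 303 FPKM in CD and WD total RNA, 333 and 274 FPKM in the light fraction, and 388 and 349 FPKM in the heavy fraction. Its ratios were 1.15, 0.823 and 0.900, for which no counting interval could be given.

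Of the conjugating enzymes, Slc27a5 was lower in WD as the FPKM were deposited and Baat was not. Slc27a5, the bile acyl-CoA synthetase (XLOC_000301; chromosome 1, 65576534 to 65587186), had 120 FPKM (291 fragments) in CD and 95.4 FPKM (221 fragments) in WD total RNA, a ratio of 0.794 (0.664 to 0.949). The light fraction held 72.5 FPKM (120 fragments) and 50.6 FPKM (182 fragments), a ratio of 0.698 (0.551 to 0.886). The heavy fraction held 173 FPKM (266 fragments) and 147 FPKM (232 fragments), and its interval included 1 (ratio 0.852, 0.711 to 1.02). Rescaled over all loci, its log2 ratio turned to 0.17 in the light and 0.15 in the heavy fraction. Baat, the bile acid-CoA:amino acid N-acyltransferase (XLOC_023997; chromosome 5, 64768400 to 64777368), had 194 FPKM (334 fragments) in CD and 205 FPKM (337 fragments) in WD total RNA, a ratio of 1.05 (0.904 to 1.23). In the heavy fraction it was the highest of the 10 genes, at 868 FPKM (949 fragments) and 926 FPKM (1037 fragments), a ratio of 1.07 (0.976 to 1.17). Its light fraction stood apart, with 80.9 FPKM (95 fragments) in CD and 180 FPKM (460 fragments) in WD, a ratio of 2.23 (1.78 to 2.81). Baat thus differed between the CD and WD light libraries, while in total RNA and the heavy fraction the interval included 1. The WD light library was also the deepest and held the most blood cell marker RNA, and the part of either in this difference was not tested.

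Abcb11, the export pump (XLOC_019865; chromosome 3, 55480023 to 55587946), was slightly lower in WD in all 3 kinds of RNA as the FPKM were deposited, and its counting intervals were the narrowest of the 8. With libraries rescaled over all loci its log2 ratio turned to 0.38 in the light fraction and 0.22 in the heavy fraction, both below the medians of 0.69 and 0.34 that all loci then had. It had 157 FPKM (869 fragments) in CD and 141 FPKM (748 fragments) in WD total RNA, a ratio of 0.900 (0.815 to 0.994). The light fraction had 101 FPKM (383 fragments) and 82.0 FPKM (674 fragments), a ratio of 0.810 (0.713 to 0.920), and the heavy fraction 359 FPKM (1262 fragments) and 322 FPKM (1159 fragments), a ratio of 0.897 (0.827 to 0.972). Nr0b2, the repressor SHP (XLOC_023522; chromosome 5, 151776003 to 151779319), rested on 24 fragments in all. It had 7.69 FPKM (8 fragments) in CD and 7.03 FPKM (7 fragments) in WD total RNA, a ratio of 0.916 (0.282 to 2.89). The light fraction held 4.22 FPKM (3 fragments) and 2.59 FPKM (4 fragments), a ratio of 0.622 with a counting interval of 0.104 to 4.19. In the heavy fraction it was listed at 0 in CD and had 2.95 FPKM (2 fragments) in WD, and no ratio is given. A difference in Nr0b2 between diets was not detectable at this depth.

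**Figure D2:**
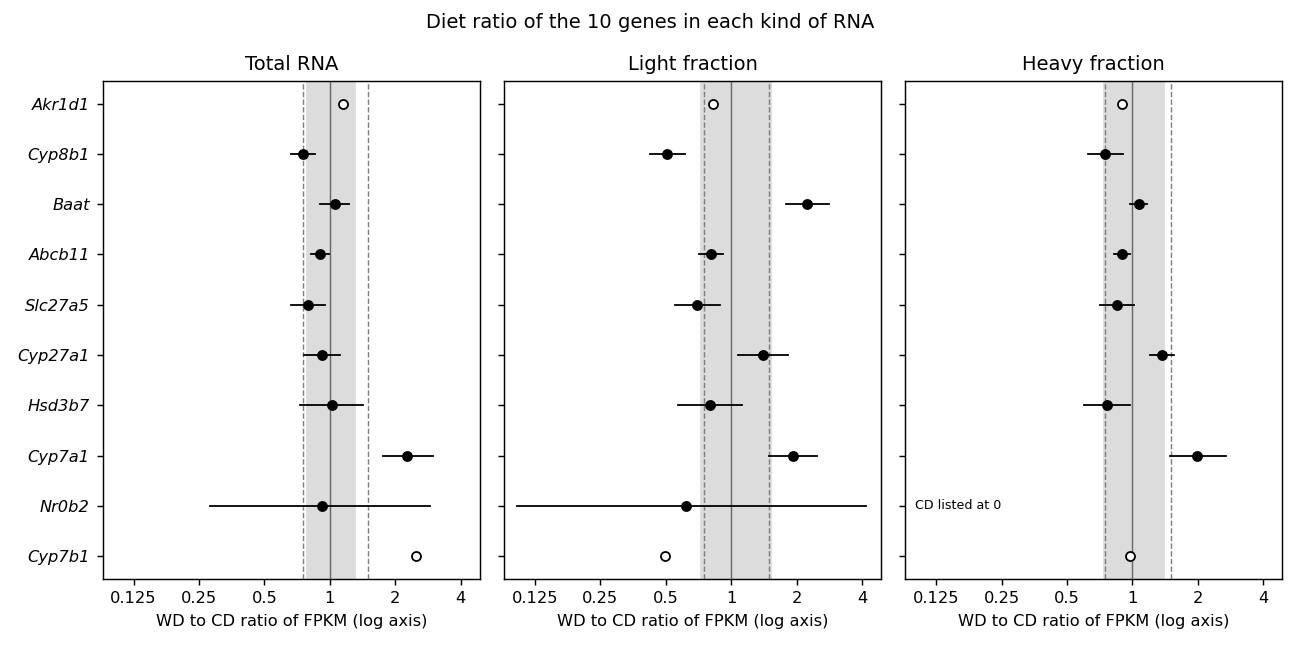
WD to CD ratio of FPKM (log axis) of the 10 genes in total RNA, the light and the heavy fraction. Filled points carry 95% counting intervals (bars), open points are genes without fragment numbers, dashed lines mark 0.75 and 1.5, and the grey band holds the middle 50% of all 10201 loci. Cyp7a1 lies right of 1.5 in each panel, with ratios of 2.27, 1.92 and 1.99, and Cyp8b1 lies left of 1 in each.

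Counted over the 10 genes, 2 passed the upper threshold in total RNA (Cyp7a1 and Cyp7b1), against 17.7% of all loci compared, and at most 0.75 for 0, against 22.7% of all loci. In the light fraction 2 genes were higher (Cyp7a1 and Baat; 25.9% of all loci) and 4 were lower (Cyp8b1, Slc27a5, Cyp7b1 and Nr0b2; 26.8%). With libraries rescaled to an equal sum, the 4 lower genes became 7 (sum over loci with a symbol) or 0 (sum over all loci), while Cyp7a1 was at least 1.5-fold higher under both. In the heavy fraction 2 genes counted as higher, Cyp7a1 and Nr0b2, the latter from a value listed at 0, against 21.7% of all loci. None of the 10 was lower there, against 25.8%. The sum over all loci added Cyp27a1 to the higher genes, giving 3 in the light and 3 in the heavy fraction. With the limits that follow from CD over WD, 2 genes were higher (23.9% of all loci) and 0 lower (17%) in total RNA, 3 higher (32.2%) and 3 lower (20.6%) in the light fraction, and 3 higher (26.9%) and 0 lower (20.6%) in the heavy fraction. Cyp27a1 joined the higher genes in both fractions and Slc27a5 left the lower genes in the light fraction. The median ratio of the 10 genes was 0.970 in total RNA, beside 1.02 over all loci, and 0.804 in the light fraction, beside 1.01. The share of the 10 genes called higher was thus near the background in each kind of RNA, and the genes did not move in 1 direction. Ratios were above 1 in all 3 kinds of RNA for Cyp7a1 and Baat (13.4% of all loci) and below 1 in all 3 for Cyp8b1, Slc27a5 and Abcb11 (13.4%). Rescaling over all loci kept these directions in all 3 for Cyp7a1 and Cyp8b1 but not for Baat, Slc27a5 and Abcb11. None of the 10 was at most at 0.75 in all 3, against 2.52%. Of the 8 genes with fragment numbers, the counting interval in total RNA lay above 1 for 1, Cyp7a1 (3.76% of loci), and below 1 for 3, Cyp8b1, Slc27a5 and Abcb11 (3.96%). Light fraction intervals lay above 1 for Cyp7a1, Baat and Cyp27a1 (8.6%) and below 1 for Cyp8b1, Slc27a5 and Abcb11 (9.68%). Heavy fraction intervals lay above 1 for Cyp7a1 and Cyp27a1 (3.51%) and below 1 for Cyp8b1, Hsd3b7 and Abcb11 (4.37%). Genes with many fragments have narrower intervals, and most of these 8 have far more than the median locus.

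The position of the mRNAs on the gradient was described by the heavy to light ratio, which the study calls ribosome density. Within a diet this ratio differed widely among genes of the same pathway. Baat was the most weighted to the heavy fraction, at 10.7 in CD (8.68 to 13.4) and 5.14 in WD (4.60 to 5.75). Cyp27a1 followed at 5.70 (4.48 to 7.38) in CD and 5.59 (4.81 to 6.54) in WD. Abcb11 was at 3.54 (3.15 to 3.98) and 3.92 (3.56 to 4.32), Hsd3b7 at 3.03 (2.23 to 4.18) and 2.90 (2.21 to 3.81), and Slc27a5 at 2.38 (1.91 to 2.98) and 2.90 (2.38 to 3.55). Cyp8b1 was lower, at 1.33 (1.11 to 1.59) in CD and 1.96 (1.62 to 2.36) in WD. Cyp7a1 had about the same FPKM in both fractions, at 0.927 (0.661 to 1.29) in CD and 0.963 (0.785 to 1.18) in WD. Akr1d1 was at 1.16 and 1.27, and the sparse Cyp7b1 at 1.07 and 2.10. For Nr0b2 the WD ratio was 1.13, with a counting interval from 0.103 to 7.95.

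A ratio of at least 1.5 was reached by 5 of the 10 genes in CD (32.9% of all loci) and by 7 in WD (31.4%), and by 5 in both diets (19.6%), namely Baat, Cyp27a1, Abcb11, Hsd3b7 and Slc27a5. A ratio of at most 0.75 was seen for 1 in CD, Nr0b2, which was listed at 0 in that heavy library (36.6% of all loci), and for 0 in WD (38.5%). With fragment numbers, the interval lay above 1 in both diets for 6 of 8 genes, these 5 and Cyp8b1. For Cyp8b1 the direction rested on the light fraction, since heavy over total RNA gave log2 ratios of -0.38 in CD and -0.39 in WD. Such intervals were found at 16% of loci in CD and 19.6% in WD, and intervals below 1, which none of the 8 had, at 13.8% and 17.7%. The scale of a heavy to light ratio depends on how the libraries were normalized, but the order of genes within a diet does not. In a comparison chosen after the data were seen, each gene with inferred fragments in every fraction was set against Cyp7a1. The heavy to light ratio of Baat was 11.6 times that of Cyp7a1 in CD (7.73 to 17.3) and 5.34 times in WD (4.24 to 6.74), and that of Cyp27a1 was 6.17 times (4.04 to 9.41) and 5.82 times (4.51 to 7.52). Abcb11 stood at 3.82 times the ratio of Cyp7a1 in CD (2.67 to 5.46) and 4.07 times in WD (3.26 to 5.11). Among these genes Cyp8b1 was closest, at 1.43 times in CD with an interval that included 1 (0.976 to 2.10) and 2.04 times in WD (1.54 to 2.69). Akr1d1 and Cyp7b1, without fragment numbers, were not compared in this way. The ratios of Akr1d1, 1.16 in CD and 1.27 in WD, lay nearer to those of Cyp7a1.

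**Figure D3:**
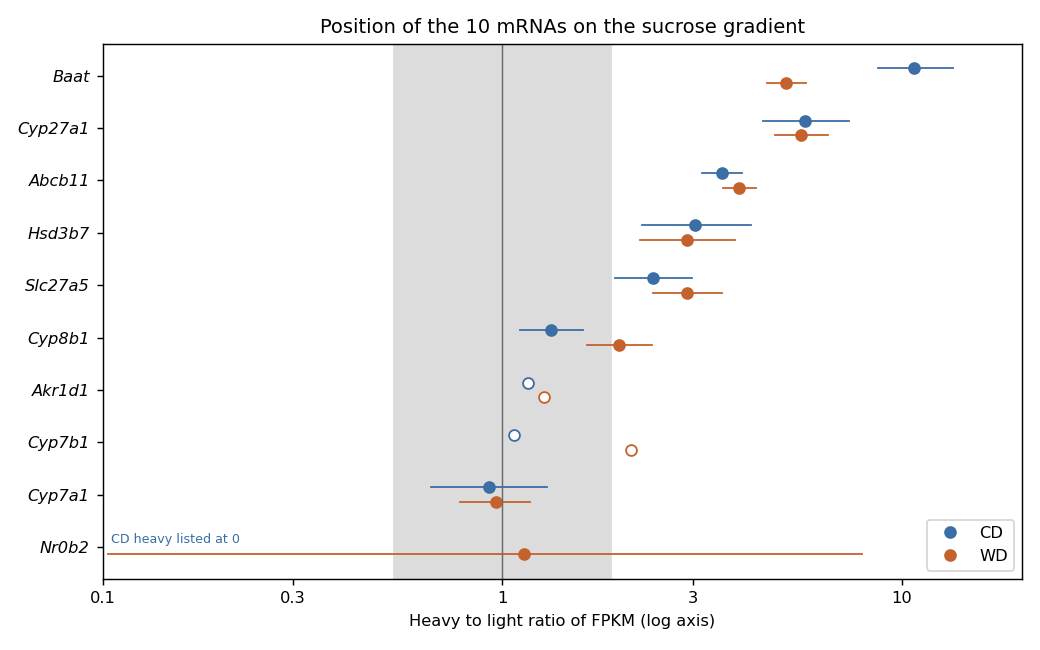
Heavy to light ratio of FPKM (log axis) of the 10 genes in CD (blue) and WD (orange), ordered by the CD value. Bars are 95% counting intervals, open points have none, and the grey band holds the middle 50% of all loci in CD. Baat and Cyp27a1 lie farthest to the heavy side and Cyp7a1 at about 1 in both diets, and Nr0b2 was listed at 0 in the CD heavy library.

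Between diets, the counting interval of ribosome density, taken as heavy over light, left out 1 for Baat and Cyp8b1. Baat had a WD to CD ratio of ribosome density of 0.479 (0.374 to 0.610), the lower value being that of WD, and both of its heavy values were close while its light values were not. Taken as heavy over total RNA, the same comparison gave a log2 difference of 0.016. Cyp8b1 had a ratio of 1.48 (1.14 to 1.92), just under 1.5 but past the limit of 1.33 that follows from the study's ratio of CD over WD. Its log2 difference of 0.56 became -0.0045 with heavy over total RNA, so that for both genes the difference was seen against the light fraction and not against total RNA. Rescaled over all loci, it was 0.26 for Cyp8b1, beside -0.32 for all loci. For Cyp7a1 the ratio was 1.04 (0.701 to 1.55), for Cyp27a1 0.980 (0.727 to 1.31), for Hsd3b7 0.956 (0.627 to 1.45), for Slc27a5 1.22 (0.903 to 1.65) and for Abcb11 1.11 (0.952 to 1.29), all with intervals that included 1. With heavy over total RNA the log2 difference of Cyp27a1 was 0.57, in place of -0.029. A ratio of at least 1.5 was found for 2 of the 10 genes, Cyp7b1 (1.97) and Nr0b2, the latter against the CD heavy value listed at 0, beside 27.7% of all loci. Baat was the 1 gene at or under 0.75, beside 36.1%. By the limits that follow from CD over WD, 3 genes were higher, Cyp8b1 included (32.9% of all loci), and Baat alone was lower (30.9%). Intervals above 1 were found at 5.79% of loci and intervals below 1 at 4.64%.

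Other genes of bile acid handling were taken from lists by role. Of 40 such genes, 39 were found and 31 reached the mean of 1 FPKM. In total RNA 1 of the 31 was at least 1.5-fold higher in WD and 5 were at most at 0.75, with a median ratio of 0.945. Over all loci 17.7% were higher and 22.7% lower, so neither count exceeds the background. Among 9 other synthesis enzymes the higher one was Acot8, a peroxisomal thioesterase, with 1.12 FPKM (3 fragments) in CD and 2.73 FPKM (7 fragments) in WD, and its interval of 0.557 to 14.6 included 1. The most abundant of this list, Akr1c14, a hydroxysteroid dehydrogenase, had 349 and 332 FPKM. The 4 carriers for uptake from blood held 0 genes past a threshold in total RNA, and Slco1b2, the most abundant, had 369 and 380 FPKM. For basolateral export 1 of 4 genes passed the filter, Abcc4, at 2.09 and 2.41 FPKM. Of 5 other canalicular transporters, Abcg2 was lower in WD, at 10.2 FPKM in CD and 3.24 FPKM in WD, a ratio of 0.325. It was also lower in the light fraction (5.18 and 3.85 FPKM) and in the heavy fraction (13.9 and 6.11 FPKM). Fragment numbers of Abcg2 could not be inferred, so its ratios have no counting interval. The phospholipid flippase Atp8b1 had a ratio of 0.745 (0.492 to 1.11), and the most abundant, Abcc2, had 182 and 160 FPKM.

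Of 12 regulators of the pathway that passed the filter, 0 were higher in total RNA and 3 were at most at 0.75, the latter a share close to the 22.7% of all loci. Nr1h3, the oxysterol receptor LXR alpha, had 32.3 FPKM (53 fragments) in CD and 21.0 FPKM (33 fragments) in WD, a ratio of 0.652 (0.408 to 1.02). Nr1i2, the pregnane X receptor, had a ratio of 0.725 (0.502 to 1.04) and Mafg, a transcriptional repressor, one of 0.642 (0.273 to 1.43), so that all 3 intervals included 1. In the light fraction Nr1h3 was higher in WD, at 36.6 FPKM (41 fragments) and 66.1 FPKM (161 fragments), a ratio of 1.80 (1.27 to 2.61). Its heavy fraction ratio was 0.786 (0.495 to 1.24). Of the 12 regulators 2 were higher in the light fraction, Nr1h3 included, and 3 were lower, beside 25.9% and 26.8% of all loci. The most abundant, Hnf4a, a hepatocyte transcription factor, had 366 FPKM in CD and 421 FPKM in WD. Of the 31 genes, 5 were higher and 8 lower in the light fraction, in the heavy fraction 1 was higher and 7 were lower, and for ribosome density 2 were higher and 8 lower. The shares over all loci were 25.9% and 26.8% in the light fraction, 21.7% and 25.8% in the heavy fraction, and 27.7% and 36.1% for ribosome density, so none of these counts stands above the background.

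**Figure D4:**
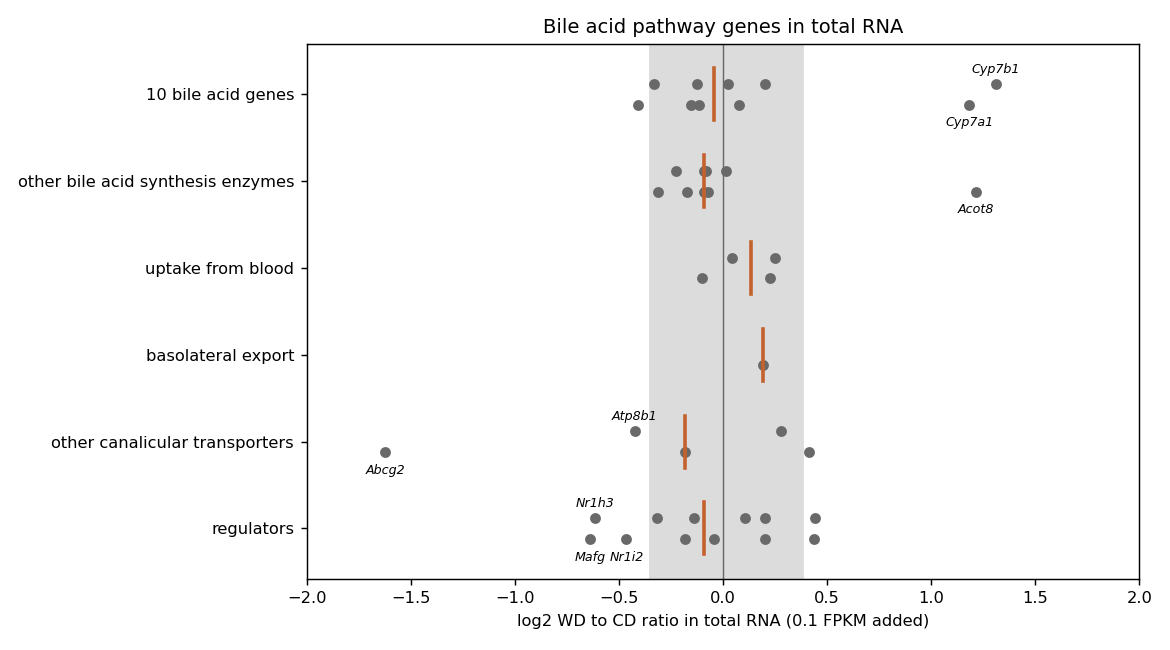
log2 WD to CD ratio in total RNA of the 10 genes and of the other bile acid genes that passed the filter of 1 FPKM, by list. Each point is a gene, orange bars are list medians, the grey band holds the middle 50% of all loci, and genes past a threshold are named. Cyp7a1 and Cyp7b1 stand apart from the other 8 of the 10 genes, and the median of the 10 genes is near 0.

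The profile of each gene over the 6 libraries was compared with those of well expressed loci (mean of 10 FPKM or more, symbol not repeated), 3804 of them for most genes. Likeness was the root mean square difference of log2 values, each centred on the gene's own mean. The 3 nearest to Cyp7a1 were Ppp1r3c (0.19), Tmem106b (0.21) and Gpnmb (0.24). For Cyp8b1 they were Usp2 (0.14), Cideb (0.17) and Slc22a18 (0.17), and for Cyp27a1 Naprt1 (0.13), Hyi (0.14) and Sod3 (0.18). Baat was nearest to Aar2 (0.24), Mri1 (0.28) and Cd1d1 (0.28), and Cyp27a1 was in sixth place for Baat (0.31). The nearest loci to Abcb11 were Cat (0.07), Slc37a4 (0.08) and Stat6 (0.11), and those to Slc27a5 were Plod1 (0.06), Cpn2 (0.10) and Aox4 (0.10). Hsd3b7 was nearest to Mettl13 (0.10), Slc25a13 (0.12) and Copb1 (0.13), and Akr1d1 to Nckap1 (0.05), Tax1bp1 (0.06) and Bckdhb (0.06). Cyp7b1 was nearest to Tnfaip2 (0.24), Ndufa5 (0.26) and Lect2 (0.26), while the nearest to Nr0b2, Ubald2, was 0.81 away. The profiles of Cyp7b1 and Nr0b2 rest on very few fragments, so little can be read from their neighbours. Within the 10 genes the closest pair was Abcb11 and Slc27a5 (0.28).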

How the data were processed

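The authors removed ribosomal RNA, sequenced 6 pooled libraries, mapped reads with TopHat to Rnor_6.0, and quantified loci with Cufflinks and Cuffnorm. They deposited FPKM per locus with lower and upper bounds and a status. The annotation is not given in the sources used here, and which of the alignment routes described in the methods the fraction reads took is not certain.

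Analyses used Python 3.11.15 with scipy 1.17.1, numpy 2.4.6, matplotlib 3.10.9 and pandas 2.3.3. A ratio or log2 difference was computed from the deposited FPKM after adding 0.1 FPKM. Genes and lists were chosen with earlier results of these data known. All 10 genes are named. From the lists, genes that reach a mean of 1 FPKM with a total RNA ratio of at least 1.5 or at most 0.75 and the most abundant gene are named, and for each of the 10 genes the 3 most alike loci. Lists of markers covered hepatocytes, cholangiocytes, Kupffer cells and macrophages, sinusoidal endothelium, stellate cells and blood cells.

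Whole fragment numbers were found for 10870 of the 13283 loci detected in 2 or more libraries (81.8%). After a jitter of 1% the share was 1.38%. The numbers were kept where the deposited bounds fitted them to within a factor of 1.25 (9482 loci). The steps were checked on simulated data. Multiples of these numbers would give the same FPKM. Alternatives were a pseudocount of 1 or 0.01 FPKM, filters at 0.1 and 10 FPKM and none, centred or rescaled libraries, and heavy over total RNA. Rescaling over all loci, thresholds on CD over WD, and the comparisons of other genes with Cyp7a1 within a library or a diet were chosen after seeing the data. RefSeq promoters are of GRCr8, and the coordinates of loci are those of the deposited table. No protein sequences were used here.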

Additional observations from a re-analysis of the deposited data

Results flagged for a closer look

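Cyp7b1 was at opposite sides of 1 in different kinds of RNA. Its WD to CD log2 ratio was 1.31 in total RNA and -1.01 in the light fraction, both past the thresholds. The difference was not tested, since each value comes from 1 library per diet. Its deposited bounds were nearest to those of 2 to 5 fragments per library.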

How the results depend on the processing

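No paired analysis was possible because each diet and kind of RNA has 1 library, and for the same reason no library could be left out. Cyp7a1 kept a WD to CD ratio of at least 1.5 in all 3 kinds of RNA under each pseudocount and scaling tried, the lowest log2 ratio being 0.59 in the light fraction when rescaled over loci with a symbol. Rescaling to the same sum over loci with a symbol moved the median log2 ratio of all loci in the light fraction from 0.017 to -0.29, and rescaling over all loci moved it to 0.69. In the heavy fraction the latter moved it to 0.34. Of 293 values of single genes under these alternatives, 32 changed sign, of which 5 had been past a threshold. The sign changes were 10 WD to CD ratios and 6 heavy to light values under rescaling over all loci, 3 heavy to light values under rescaling over loci with a symbol and 13 under heavy over total RNA.

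Genes with a ratio of at most 0.75 in total RNA numbered 1 when centred and 2 when rescaled over all loci, in place of 0. In the light fraction they numbered 7 and 0 under the 2 rescalings, in place of 4, and in the heavy fraction 1 when rescaled over loci with a symbol, in place of 0. Rescaling over all loci turned the light fraction log2 ratio of Slc27a5 to 0.17, below the median of 0.69 for all loci, and put 9 genes at a heavy to light ratio of at least 1.5 in CD, in place of 5. Genes with a ribosome density at least 1.5-fold higher in WD numbered 1 with a pseudocount of 1 FPKM, 4 when rescaled over loci with a symbol and 1 with heavy over total RNA, in place of 2. Heavy over total RNA also gave 2 genes at most at 0.75 in WD, in place of 0, with log2 values of -0.73 for Cyp7b1 and -1.23 for Nr0b2. The value of Cyp8b1 in WD became -0.39, which stayed above that limit. Heavy over total RNA also turned the diet difference to -1.34 for Cyp7b1 and to 0.016 for Baat. Calls with the limits turned to CD over WD stayed within 1.5 times the counts given, with Cyp27a1 added in both fractions and Cyp8b1 added for ribosome density. Apart from the rescalings, which change the scale by construction, the cause was not tested. Where filters were raised to a mean of at least 10 FPKM, 8.77% of loci in total RNA were at least 1.5-fold higher. The sum over loci of a symbol changed no level, since each gene has 1 locus. Depth limits Cyp7b1 and Nr0b2 most.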
